A study of Mus musculus with 8 samples.

Results

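The genes described here are 26 integrin subunits and 15 adaptors of the focal adhesion. They were chosen by name, as a functional group, with earlier results of these data known, and make up 41 of the 43346 gene identifiers counted. RNA-Seq was performed on notochord-derived cells (NDCs) of Shh-cre;ROSA:YFP mice, in which Cre driven by Shh turns on a YFP reporter in Shh-expressing cells and all their descendants, so the mark follows a cell after it has stopped expressing Shh. The comparison was between embryonic day 12.5 (E12.5), when the notochord is a continuous rod, and postnatal day 0 (P0), when its descendants fill the nucleus pulposus (NP) of each disc. There were 4 litters at each stage, the same genotype was used at both, and each sample pooled about 6 animals of a litter. At E12.5 whole notochords were freed under a microscope and lysed without sorting, whereas at P0 NP cells were shaken loose from opened discs and collected by their YFP signal, so stage and isolation method cannot be told apart.

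Integrins are membrane receptors made of an alpha and a beta subunit that grip the extracellular matrix, or a partner on another cell, on the outside and the actin cytoskeleton on the inside. The alpha subunit largely sets the ligand: some pairs bind laminin, some collagen, some the arginine-glycine-aspartate (RGD) motif of fibronectin and vitronectin, and some are used by blood cells to bind other cells. Inside the cell, talins and kindlins bind the beta tail and switch the receptor on, and integrin-linked kinase (ILK), its PINCH and parvin partners, vinculin, paxillin, focal adhesion kinase and zyxin build the adhesion that forms around it. NP cells lie in a matrix rich in laminin in early life, and laminin-binding integrins are known as receptors of this tissue.

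The E12.5 litters had 4442775 to 7180221 reads assigned to genes, and the P0 litters had 6371842 to 8904050. Levels are given in CPM, the count of a gene scaled to the size of its library, and a floor of 3 counts corresponds to 0.337 to 0.675 CPM, which covers counting error only. Of 10 notochord and NP markers, 9 reached 3 counts in every E12.5 litter and 8 in every P0 litter, with a summed level of 2382 to 6367 CPM in the embryonic litters and 8220 to 31824 CPM in the P0 litters; Noto was under 3 counts in every E12.5 litter. Car3 made up most of the sum in every P0 litter, at 6250 to 24889 CPM against 695 to 2418 CPM at E12.5. The stage difference of the sum is therefore largely that of Car3. T, which encodes brachyury, was at 242 to 942 CPM at E12.5 and 574 to 2323 CPM at P0, and Shh was at 420 to 1348 CPM at E12.5 and under 12 CPM in every P0 litter. Markers of other cells were present at both stages. The 9 skeletal muscle genes summed to 232 to 1232 CPM at E12.5 and 22.2 to 128 CPM at P0, the 6 sclerotome genes to 125 to 173 and 6.00 to 18.7 CPM, and the 5 osteoblast genes, of which Dmp1 was at 0 in every E12.5 litter, to 1.89 to 3.69 and 291 to 598 CPM. The 6 erythroid genes summed to 9277 to 43557 CPM at E12.5, most in litters 1 and 4, and 180 to 628 CPM at P0, and the 6 osteoclast genes, of which Dcstamp was at 0 in every E12.5 litter, to 17.4 to 28.3 and 124 to 371 CPM. The neural tube list reached 1070 CPM in E12.5 litter 3, where the other litters of that stage had 56.6 to 104. That sum was mostly Tubb3 (576 CPM), Elavl3 (289 CPM) and Neurod1 (175 CPM). Sox2 was also highest in that litter of its stage, at 27.0 CPM, and Pax6 was lowest, at 1.57 CPM. At P0 the list summed to 115 to 287 CPM, mostly through Tubb3 and Elavl3. The 12 leukocyte genes summed to 62.4 to 130 CPM at E12.5 and to 3206, 3814, 4137 and 367 CPM in P0 litters 1 to 4. P0 litter 3 also stood apart by its neutrophil genes, with 6678 CPM against 764 to 973 in the other P0 litters, and P0 litter 4 by its few macrophage genes, with 61.4 CPM against 1678 to 5192.

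Of the 41 genes, 39 passed the filter on low counts and were tested. The quasi-likelihood test of edgeR called 16 of them at a Benjamini-Hochberg adjusted p under 0.05 (41%), where it called 27.9% of all 15467 genes tested. Of the 16, 11 were higher at P0 (28.2%, against 16.0% of all genes) and 5 were lower (12.8%, against 12.0%). Among the 11 were 6 genes grouped here as blood cell genes, Itgal, Itgam, Itgax, Itgb2, Fermt3 and Parvg, at 0 to 12.5 CPM at E12.5. The larger share of higher genes rests mainly on these 6. All of them but Fermt3 passed the filter on low counts only with their P0 litters. Itga1 (6.77 to 11.5 CPM) and Lims2 (1.65 to 3.20 CPM) were as low at E12.5 and also rose. The genes that rose were Itga1, Itga5, Itgb5, Itgal, Itgam, Itgax, Itgb2, Tln1, Fermt3, Parvg and Lims2, and those that fell were Itga3, Itga8, Itga11, Itgb8 and Fermt1. The median log2 fold change, always P0 over E12.5, was 0.38 over the tested members and 0.04 over all genes. All P0 litters lay above all E12.5 litters for 12 of the 39 tested members (15.5% of all genes tested) and below them for 4 (14.4% of all genes tested). In mixed tissue, fewer cells of a type and less RNA per cell cannot be told apart, and this holds for each value below. Without E12.5 litter 3, 11 members were higher and 5 lower; without P0 litter 3 the counts were 10 and 4, and without P0 litter 4 they were 13 and 5.

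**Figure D1:**
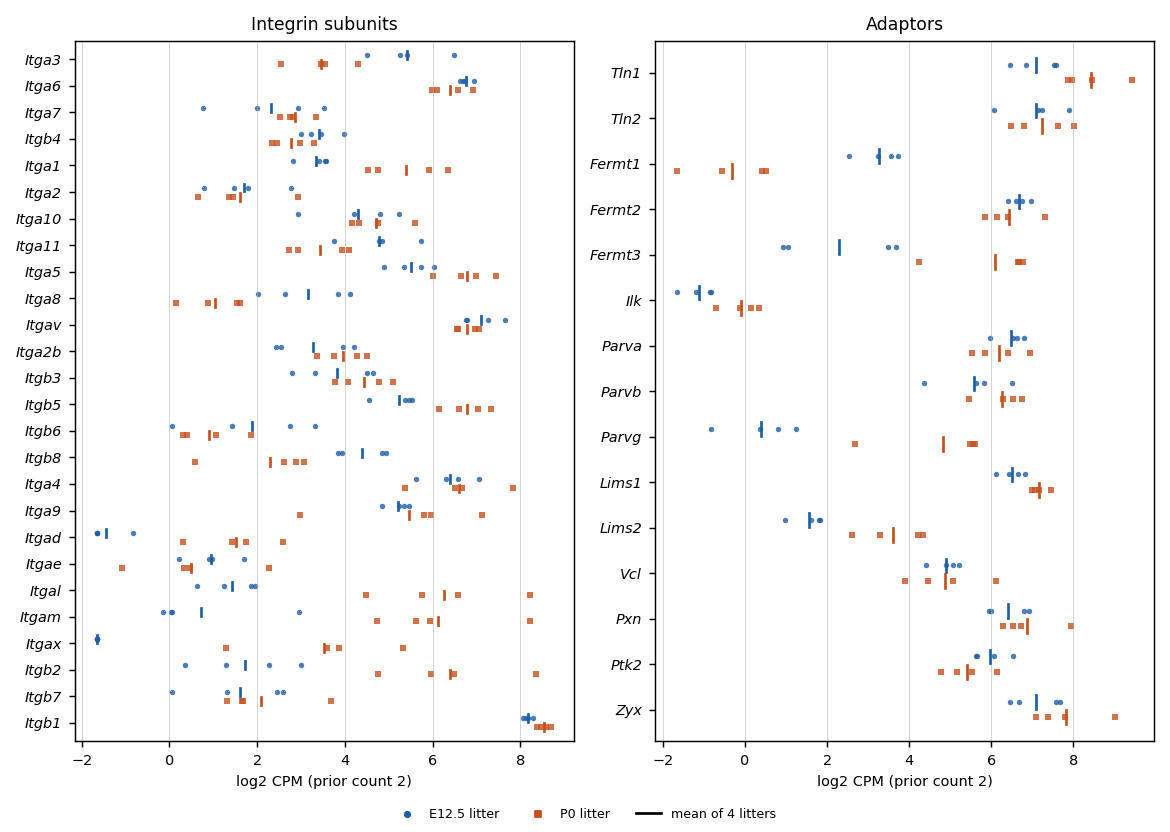
Level of each of the 41 members in each litter, in log2 CPM with a prior count of 2 (horizontal axis); blue circles are the 4 E12.5 litters, orange squares the 4 P0 litters, and the short bar is their mean. The leukocyte subunits Itgal, Itgam, Itgax and Itgb2 and the adaptors Fermt3 and Parvg lie apart by stage, Fermt1 lies apart in the other direction, and the Itgb1 litters span 268 to 418 CPM.

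Among the 4 laminin-binding subunits, Itga3 fell and the other 3 did not pass the test. Itga3 encodes α3, the partner of β1 in a receptor for laminins with the α5 chain, and stood at 89.4, 37.9, 22.2 and 42.1 CPM in E12.5 litters 1 to 4 and at 11.3, 5.48, 10.6 and 19.3 CPM in P0 litters 1 to 4. Every P0 litter was lower than every E12.5 litter, although the lowest E12.5 value (litter 3) and the highest P0 value (litter 4) lay close together. The log2 fold change was −2.03 (SE 0.47, adjusted p = 0.00921).

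Itga6, whose product pairs with β1 or β4 to bind laminin and which marks many epithelia, was at 98.4, 103, 124 and 106 CPM at E12.5 and 95.5, 120, 62.9 and 68.1 CPM at P0. Its litters overlapped, with 2 P0 litters inside the E12.5 range or next to it and 2 below it (log2 fold change −0.31, SE 0.25, adjusted p = 0.381). Itgb4, the β4 subunit of hemidesmosomes, ranged from 7.61 to 15.3 CPM at E12.5 and from 4.76 to 9.54 CPM at P0 (−0.65, adjusted p = 0.226). Itga7, the laminin receptor subunit of muscle, ranged from 1.37 to 11.2 and from 5.42 to 9.81 CPM (0.24, adjusted p = 0.783). By stage means per length, Itga6 was the highest of the laminin-binding α subunits at both stages. It had 11.9 CPM per kb of exon at E12.5 (SD 1.22) and 9.60 at P0, against 8.39 (SD 5.07) and 2.04 for Itga3. In E12.5 litter 1 Itga3 was above Itga6 on this scale.

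Of the 4 collagen-binding subunits, Itga1 rose, Itga11 fell and the other 2 did not pass the test. Itga1, a β1 partner that binds mainly sheet-forming collagens such as collagen IV, was at 10.4, 11.5, 6.77 and 11.3 CPM in the E12.5 litters and 22.6, 26.8, 59.8 and 81.6 CPM in the P0 litters. No litter of one stage reached the other, and P0 litters 3 and 4 were well above P0 litters 1 and 2. The log2 fold change was 2.26 (SE 0.42, adjusted p = 0.00307) and was 1.83 (adjusted p = 0.00363) without P0 litter 4, which had the highest Itga1 value and the lowest leukocyte sum. Itga11, a receptor subunit for fibrillar collagen in mesenchymal cells, was at 52.6, 28.5, 13.2 and 27.3 CPM at E12.5 and 6.29, 7.35, 14.95 and 16.8 CPM at P0. P0 litters 3 and 4 lay above E12.5 litter 3, so the stages overlapped. The log2 fold change was −1.41 (SE 0.46, adjusted p = 0.0394), and the call was kept in only 2 of the 8 fits that left out 1 litter.

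Itga10, the collagen II receptor subunit of chondrocytes, was at 7.25 to 37.0 CPM at E12.5 and 17.5 to 48.4 CPM at P0 and did not pass (0.32, adjusted p = 0.662). Itga2, which is best known from platelets and epithelia, was low at both stages, with 1.42 to 6.53 and 1.26 to 7.35 CPM (−0.06, adjusted p = 0.960). Itga1 and Itga2 are neighbours on chromosome 13 of GRCm38, at chr13:114953096-115101964 and chr13:114833081-114932100 on the minus strand; Itga1 rose and Itga2 was not called, although the difference between the genes was not tested.

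Of the 8 subunits that bind RGD ligands, 2 rose and 2 fell. Itga5 encodes α5, which pairs with β1 as the main fibronectin receptor. It was at 52.6, 40.4, 29.3 and 64.7 CPM at E12.5 and 100, 64.5, 127 and 173 CPM at P0. The stages met at a single point, since P0 litter 2 was level with E12.5 litter 4 and the other P0 litters were higher. The log2 fold change was 1.31 (SE 0.34, adjusted p = 0.0147), and the adjusted p was 0.0534 without E12.5 litter 2.

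Itgb5, the β5 partner of αv in a vitronectin receptor, was at 43.9, 41.2, 23.2 and 45.5 CPM at E12.5 and 129.7, 161, 97.0 and 70.7 CPM at P0. All P0 litters were higher (log2 fold change 1.58, SE 0.31, adjusted p = 0.00395), and the difference was 1.39 (adjusted p = 0.00822) without E12.5 litter 3, the lowest. The osteoblast list was higher at P0 too, and its part in the Itga1, Itga5 and Itgb5 results was not tested.

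The RGD subunits that fell were Itga8 and Itgb8. Itga8, whose α8β1 receptor binds nephronectin in the developing kidney, was at 5.90, 17.0, 3.75 and 14.0 CPM at E12.5 and 0.786, 2.60, 2.71 and 1.52 CPM at P0. Itgb8, the β8 partner of αv that activates latent TGF-β, was at 14.9, 28.5, 14.0 and 30.3 CPM at E12.5 and 7.08, 8.08, 1.18 and 5.76 CPM at P0. Neither gene overlapped between stages, and E12.5 litters 2 and 4 were the high ones for both. The log2 fold changes were −2.39 (SE 0.59, adjusted p = 0.0120) and −1.99 (SE 0.52, adjusted p = 0.0161). The muscle and sclerotome lists were lower at P0 in the same samples, and their part in these results and in those of Itga3 and Itga11 was not tested.

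Itgav encodes αv, the subunit shared by most vitronectin receptors, and it did not pass the test. It was at 153, 200.2, 109 and 108 CPM at E12.5 and 94.4, 133, 126 and 94.9 CPM at P0 (log2 fold change −0.35, SE 0.26, adjusted p = 0.354). Of the β subunits that share αv, Itgb5 rose, Itgb8 fell, and Itgb3 and Itgb6 were not called. Itgb3, the β3 of platelets and osteoclasts, ranged from 6.64 to 24.6 CPM at E12.5 and from 13.4 to 33.9 CPM at P0 (0.53, adjusted p = 0.425), and Itgb6, an epithelial subunit, from 0.725 to 9.59 and from 0.910 to 3.30 CPM (−1.43, adjusted p = 0.194). The osteoclast marker list was higher at P0 mainly through Acp5 and Ctsk, and 3 of its 6 genes reached 3 counts in every P0 litter. The part of osteoclasts in the Itgb3 levels was not tested.

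Itga2b, the platelet fibrinogen receptor subunit, was at 18.2, 5.46, 5.08 and 15.3 CPM at E12.5 and 19.0, 22.2, 9.89 and 13.0 CPM at P0 and was not called (0.56, adjusted p = 0.408). The 9 megakaryocyte and platelet genes summed to 107, 38.4, 30.0 and 81.1 CPM and to 239, 378, 61.4 and 110 CPM in the same litters. Within each stage the litters had the same order in both. At P0 the order of the sum rests largely on Pf4, which made up most of it in litters 1 to 3 (197.5, 282.5 and 39.0 CPM). In P0 litter 4 Pf4 was at 14.9 CPM and Ppbp at 59.0 CPM. The part of those cells in Itga2b was not tested.

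Itga4 and Itga9, whose products bind VCAM-1, fibronectin or tenascin-C, were not called. Itga4 was at 49.1 to 132 CPM at E12.5 and 41.1 to 227 CPM at P0 (0.38, adjusted p = 0.595). Itga9 was at 37.0, 43.9, 28.4 and 40.1 CPM at E12.5 and 62.0, 139.6, 55.3 and 7.58 CPM at P0. P0 litter 4 was below every E12.5 litter and the other P0 litters were above all of them (0.82, SE 0.62, adjusted p = 0.363). Without P0 litter 4 the log2 fold change was 1.16 and the gene passed (adjusted p = 0.0224). The macrophage list had the same order over the P0 litters as Itga9, with 4665, 5192, 1678 and 61.4 CPM, and its part in the Itga9 levels was not tested.

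The leukocyte subunits gave the largest differences of the group: 4 of the 6 tested rose (66.7%, against 16.0% of all genes) and none fell. These 4 passed the filter on low counts only with their P0 litters, so a call of lower was hardly open to them. Itgb2 encodes β2, the subunit common to all β2 integrins, and Itgal, Itgam, Itgax and Itgad encode its α partners αL, αM, αX and αD, which blood cells use to bind ICAM-1, complement fragments and fibrinogen. Itgb2 was at 2.12, 4.49, 0.967 and 7.62 CPM at E12.5 and 61.8, 89.4, 327 and 26.8 CPM at P0. Every P0 litter was above every E12.5 litter, P0 litter 3 was the highest and P0 litter 4 the lowest of its stage (log2 fold change 5.10, SE 0.90, adjusted p = 0.00284).

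Itgal was at 3.54, 3.32, 2.06 and 1.23 CPM at E12.5 and 53.9, 94.9, 297 and 22.1 CPM at P0. It had the same order over the P0 litters as Itgb2 (log2 fold change 5.52, SE 0.83, adjusted p = 0.00128). Itgam was at 0.708, 0.585, 0.725 and 7.38 CPM at E12.5 and 49.2, 60.7, 298 and 26.2 CPM at P0, with E12.5 litter 4 far above the other E12.5 litters. Its log2 fold change was 5.62 (SE 1.08, adjusted p = 0.00413), and 7.24 (adjusted p = 0.00328) without E12.5 litter 4.

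Itgax had no count in any E12.5 litter and 11.6, 14.3, 40.0 and 2.12 CPM at P0 (adjusted p = 0.00443). Set against the floor of 3 counts per E12.5 litter, its mean was at least 28.4-fold higher at P0, and at least 15.6-fold higher without P0 litter 3. Itgad did not pass the filter; it had 0 counts in E12.5 litters 1 to 3 and 0.246 CPM in litter 4, and 5.66, 3.03, 2.35 and 0.910 CPM at P0. With no filter its adjusted p was 0.000411. Itgad alone of the β2 partners was highest in P0 litter 1 rather than litter 3.

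The subunits of lymphocytes that home to gut and skin were not called. Itgae, whose product binds E-cadherin, ranged from 0.846 to 2.95 CPM at E12.5 and from 0.152 to 4.47 CPM at P0 (−0.05, adjusted p = 0.974). Itgb7, which pairs with α4 or αE, was at 5.19, 2.15, 0.725 and 5.66 CPM at E12.5 and 2.83, 2.16, 12.5 and 2.88 CPM at P0 (0.61, adjusted p = 0.583). P0 litter 3 was the only P0 litter above the E12.5 range.

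The 4 subunits that rose are all β2 integrin genes, and the leukocyte list was higher in the same litters. All 12 genes of that list reached 3 counts in every P0 litter and 10 did so in every E12.5 litter. Ptprc, which encodes the pan-leukocyte surface protein CD45, was at 3.12 to 5.16 CPM at E12.5 and at 174.9, 250.2, 568 and 50.5 CPM in the P0 litters. Divided by Ptprc in the same P0 litter, Itgal was at 0.308 to 0.523, Itgb2 at 0.353 to 0.575, Itgam at 0.243 to 0.525 and Itgax at 0.0420 to 0.0705. In the E12.5 litters, where Ptprc was low, the ratios were 0.238 to 1.07 for Itgal, 0.296 to 1.48 for Itgb2, 0.188 to 1.43 for Itgam and 0 for Itgax. The neutrophil, macrophage and B lymphocyte lists were all higher at P0 than at E12.5 in P0 litters 1 to 3, and in P0 litter 4 the macrophage list (61.4 CPM) lay within the E12.5 range of 59.1 to 116 CPM. The part of blood cells in the 4 calls was not tested. Without P0 litter 4 the log2 fold changes of Itgal, Itgam and Itgb2 were 5.83, 5.92 and 5.40, and without P0 litter 3 they were 4.49, 4.36 and 4.01, and each still passed.

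**Figure D2:**
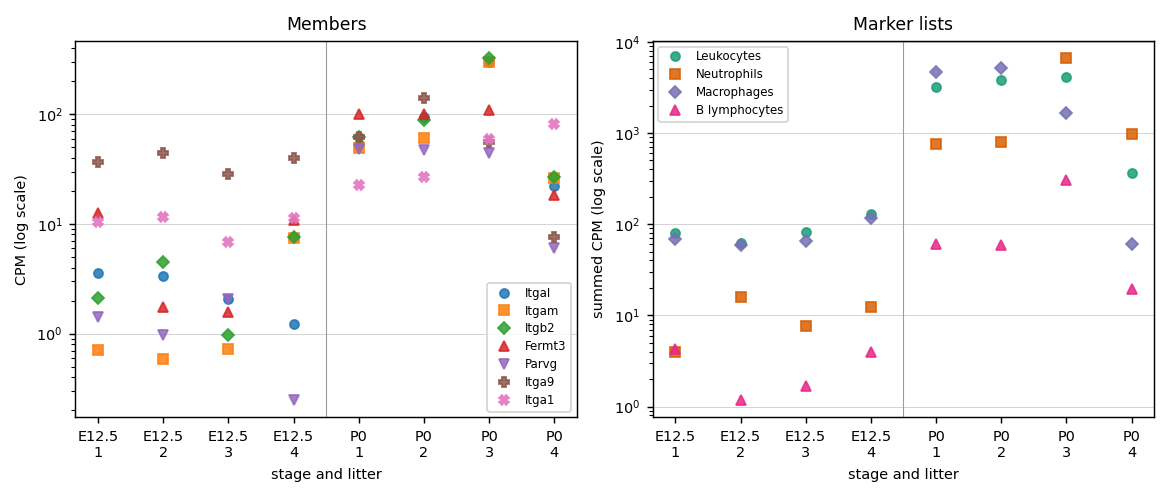
Left, CPM of 7 members in each litter; right, summed CPM of 4 blood cell marker lists in the same litters; both vertical axes are log scales, each point is a litter, and the vertical line parts the stages. Itgal, Itgam and Itgb2 peak in P0 litter 3 as the neutrophil and B lymphocyte lists do, Itga9 is lowest in P0 litter 4 as the macrophage list is, and Itga1 is highest there.

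Itgam, Itgax and Itgad lie side by side on the plus strand, at chr7:128062640-128118491, chr7:128129547-128150657 and chr7:128154376-128223816 of GRCm38, with Itgal on the same chromosome at chr7:127296260-127335138. Itgal, Itgam, Itgax and Fermt3 were each called higher at P0, although Fermt3 was nearly equal in P0 litters 1 to 3 and the others were not. The 100 bases before their RefSeq start sites are shown where the promoter table held them, for Itgam (chr7:128062540-128062639, plus strand), Itgax (chr7:128129450-128129549, plus strand) and Fermt3 (chr19:7019470-7019569, minus strand). Capitals mark GAGGAA or, on the other strand, TTCCTC, the core letters of the element bound by the myeloid factor PU.1, encoded by Spi1.
Itgam: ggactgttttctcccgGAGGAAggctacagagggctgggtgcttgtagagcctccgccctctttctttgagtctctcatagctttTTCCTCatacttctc
Itgax: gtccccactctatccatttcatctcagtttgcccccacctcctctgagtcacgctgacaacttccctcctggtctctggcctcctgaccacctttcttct
Fermt3: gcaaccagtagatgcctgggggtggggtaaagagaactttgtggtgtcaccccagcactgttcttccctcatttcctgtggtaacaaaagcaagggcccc
Itgam held 2 matches, on opposite strands, and Itgax and Fermt3 held none in this stretch or in the 250 bases before the start. Over the 34 start sites matched for 28 of the members, 11 (32.4%) held a match within 250 bases, against 23.3% of all 32851 start sites in the table. Itga5, Itga3, Itga11 and Tln1 were among the members with a match, so genes that rose and genes that fell both had it. A match is a description of these letters and not a site of binding.

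Itgb1 encodes β1, the partner of 12 α subunits in this group, and had the highest mean level per length of the integrin genes at both stages, although in P0 litter 3 Itgb2 was above it, with 107 against 93.3 CPM per kb of exon. It was at 289, 313, 268 and 279 CPM at E12.5 and 353, 331, 381 and 418 CPM at P0. All P0 litters were above all E12.5 litters, but the difference was small and did not pass (log2 fold change 0.37, SE 0.21, adjusted p = 0.224). Per kb of exon it was at 65.8 to 76.7 CPM at E12.5 and 81.2 to 102 CPM at P0. The 12 α subunits summed to 0.762 to 1.12 times Itgb1 at E12.5 and to 0.734 to 0.911 times at P0, on the same scale.

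The make-up of that α sum differed between the stages. Itga5 took 11.4% to 19.0% of it at E12.5 (mean 13.9% ± 3.49, SD, n = 4) and 17.7% to 45.5% at P0 (31.6% ± 11.3), and it was the 3rd most abundant of the 12 at E12.5 and the first at P0. Itgav went from 19.7% ± 4.82 to 14.1% ± 2.15 and Itga6 from 18.5% ± 6.06 to 13.2% ± 4.80. At E12.5 the litters of Itgav, Itga6 and Itga5 overlapped, so the order among these 3 is not separated by the spread, and at P0 Itgav and Itga6 overlapped as well. Itga3 overlapped all 3 at E12.5 too, and in E12.5 litter 1 it had the largest share of the 12 (19.7%). In P0 litter 2 Itga9 (24.5%) and Itga6 (18.0%) exceeded Itga5 (17.7%). Itga3 took 7.77% to 19.7% of the sum at E12.5 and from 1.30% to 4.38% of it at P0, and its rank went from 4 to 9. Itga11 took 5.12% to 12.9% and 1.93% to 4.26%, whereas Itga1 took 0.701% to 0.880% and 1.92% to 5.69% and went from rank 12 to rank 7 by stage means. At E12.5 its mean (0.793%) was level with that of Itga2 (0.796% ± 0.703), which was the lower of the pair in litters 1, 2 and 4. The shares of Itga3, Itga11, Itga8 and Itga1 did not overlap between the stages, and no test was run on shares because each depends on the others.

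**Figure D3:**
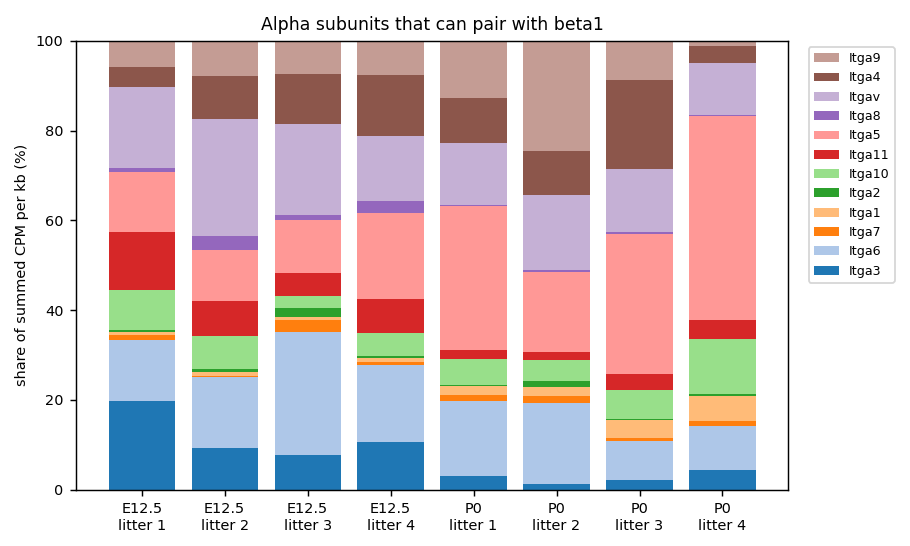
Share of each α subunit that can pair with β1, in percent of their summed CPM per kb of exon, for each litter (4 E12.5 on the left, 4 P0 on the right). The Itga5 share ranges from 11.4% to 19.0% at E12.5 and from 17.7% to 45.5% at P0, and the Itga9 share at P0 ranges from 1.28% in litter 4 to 24.5% in litter 2.

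Of the talins, which link the β tail to actin, Tln1 rose and Tln2 was not called. Tln1 was at 185, 115, 86.9 and 189.6 CPM at E12.5 and 232, 351, 684 and 249 CPM at P0. P0 litter 3 was far above the rest, while P0 litters 1 and 4 were close to E12.5 litters 1 and 4 (log2 fold change 1.40, SE 0.40, adjusted p = 0.0232). The call was lost without P0 litter 3 (0.95, adjusted p = 0.0540), and also without E12.5 litter 3 (1.21, adjusted p = 0.0515) or E12.5 litter 2 (adjusted p = 0.0756). Tln1 was at 26.6 to 56.1 times Ptprc in the E12.5 litters, at 1.20 to 1.40 times in P0 litters 1 to 3 and at 4.93 times in P0 litter 4, and the part of blood cells in the Tln1 call was not tested. Tln2 was at 66.7 to 236 CPM at E12.5 and 88.4 to 259 CPM at P0 (0.15, adjusted p = 0.826).

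The kindlins, which bind the β tail beside talin, split 3 ways. Fermt1, the kindlin of epithelial cells, fell from 13.0, 11.5, 5.44 and 9.10 CPM at E12.5 to 1.10, 1.01, 0.353 and 0 CPM at P0. Its P0 litters were at or near the floor of 3 counts, and the log2 fold change was −3.95 (SE 0.72, adjusted p = 0.00265). Fermt3, the kindlin of blood cells, was at 12.5, 1.76, 1.57 and 10.8 CPM at E12.5 and 101, 100.1, 109 and 18.5 CPM at P0. P0 litters 1 to 3 were nearly equal and litter 4 was much lower, but still above all E12.5 litters (3.67, SE 0.78, adjusted p = 0.00664). Fermt2, the kindlin of most other tissues, was at 85.2, 124, 107 and 97.4 CPM at E12.5 and 70.3, 57.0, 84.3 and 158 CPM at P0 (−0.16, adjusted p = 0.741). Per kb of exon Fermt2 was the highest kindlin in every E12.5 litter, at 16.4 to 23.9 CPM. In P0 litters 1 to 3 Fermt3 was above it, at 17.5, 17.3 and 18.9 CPM per kb against 13.5, 11 and 16.2 for Fermt2, whereas in P0 litter 4 Fermt2 was at 30.4 and Fermt3 at 3.20.

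Within the complex of ILK, PINCH and parvin, Parvg and Lims2 rose and none of the 5 genes tested fell. Parvg, the parvin of blood cells, was at 1.42, 0.976, 2.06 and 0.246 CPM at E12.5 and 48.6, 47.0, 44.1 and 6.06 CPM at P0. The pattern over the P0 litters was that of Fermt3, with litters 1 to 3 alike and litter 4 lower (log2 fold change 4.85, SE 0.72, adjusted p = 0.00110). Divided by Ptprc, Fermt3 was at 0.192 to 0.577 and Parvg at 0.0777 to 0.278 in the P0 litters, and both ratios were lowest in P0 litter 3. In the E12.5 litters, where Ptprc was low, the ratios were 0.481 to 3.79 for Fermt3 and 0.0476 to 0.630 for Parvg. The part of blood cells in the Fermt3 and Parvg calls was not tested. Its neighbour Parvb, whose exons end at 84315688 on chromosome 15 where those of Parvg begin at 84324026, was at 20.3 to 89.9 CPM at E12.5 and 43.8 to 107 CPM at P0 (0.56, adjusted p = 0.350). Parva, the widely expressed parvin, was at 61.9 to 111 and 45.9 to 122 CPM (−0.23, adjusted p = 0.641).

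Lims2 encodes PINCH-2. It was at 1.65, 2.73, 3.14 and 3.20 CPM at E12.5 and 18.1, 5.77, 9.42 and 19.7 CPM at P0. All P0 litters were higher, litters 1 and 4 the most (log2 fold change 2.29, SE 0.47, adjusted p = 0.00474). Lims1, which encodes PINCH-1, was at 68.4, 113, 99.3 and 85.8 CPM at E12.5 and 127, 143, 176 and 133 CPM at P0. Its stages did not overlap, but it missed the threshold (0.65, SE 0.23, adjusted p = 0.0536); DESeq2 (adjusted p = 0.0306) and limma-voom (adjusted p = 0.0465) called it. Per length Lims1 was above Lims2 at both stages, with 18.8 and 29.5 CPM per kb against 0.876 and 4.33.

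Ilk was not tested. It was at 0 to 0.246 CPM in the E12.5 litters and 0.288 to 0.942 CPM in the P0 litters. Of its 2744 exon bases at chr7:105736592-105742925 on the plus strand, 89.7% overlap exons of Taf10 and Rrp8 on the minus strand. Reads that overlap exons of more than 1 gene are set aside by htseq-count when strand is not used, and whether it was used is not given in the sources used here. Among protein-coding genes with over 80% of their exon length antisense to another counted gene, 61 of 71 (85.9%) were under 1 CPM, against 36.3% of 16077 with no exon overlap. The Ilk values are therefore given as uncertain, and the same holds in part for Vcl, with 25.5% of its exon length over Ap3m1.

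The other adaptors of the adhesion, Vcl (vinculin), Pxn (paxillin), Ptk2 (focal adhesion kinase) and Zyx (zyxin), were not called. Vcl was at 20.8 to 36.6 CPM at E12.5 and 14.6 to 68.8 CPM at P0 (0.21, adjusted p = 0.757) and Pxn at 60.9 to 120 and 77.0 to 245 CPM (0.55, adjusted p = 0.330). Ptk2 was at 48.9 to 92.5 and 26.8 to 69.7 CPM (−0.54, adjusted p = 0.253). Zyx was at 205, 102, 87.7 and 189.6 CPM at E12.5 and 166, 223, 513 and 135 CPM at P0 (0.83, adjusted p = 0.200). Vcl, Pxn and Zyx were each highest in P0 litter 3, as was Tln1. Without that litter the log2 fold change of Zyx was 0.26 (adjusted p = 0.622).

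**Figure D4:**
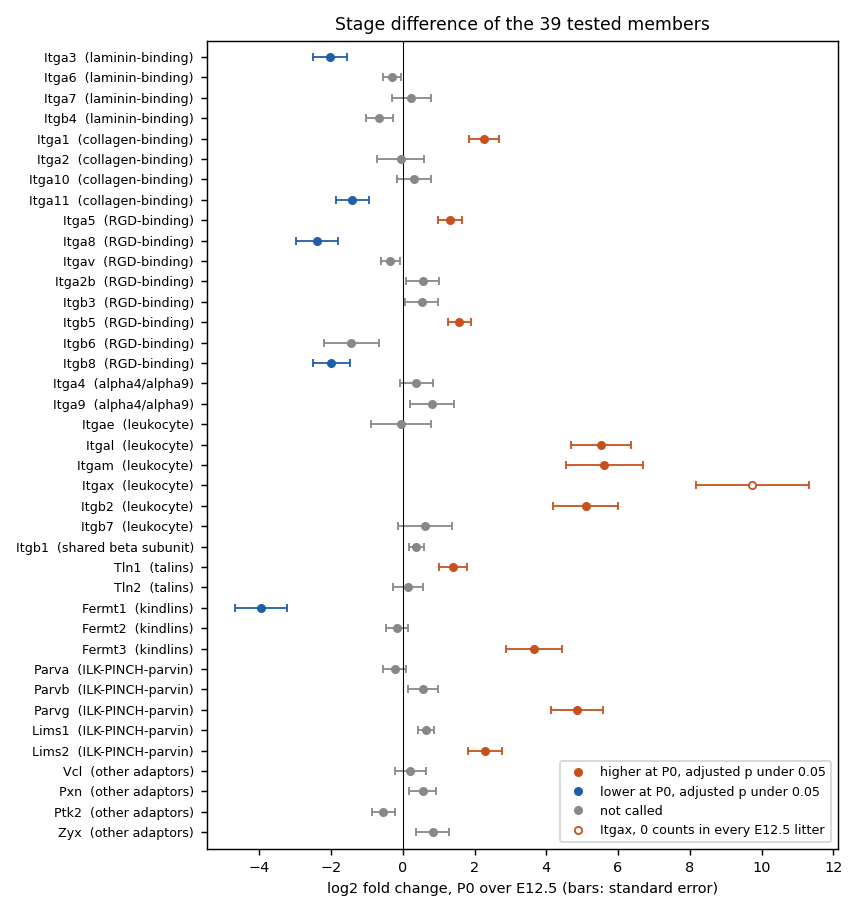
Log2 fold change of the 39 tested members, P0 over E12.5, with bars of 1 standard error (horizontal axis), grouped by role; orange marks genes higher at P0, blue lower and grey not called. The open Itgax point rests on 0 counts in every E12.5 litter and is a fitted value, not a bound; the values read as 5.10 to 5.62 for Itgb2, Itgal and Itgam and −3.95 for Fermt1.

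The ligands of these receptors changed in both directions. Of 34 ligand genes, 33 were tested, and 57.6% were called, against 27.9% of all genes. At P0 9 were higher (27.3%, against 16.0% of all genes) and 10 lower (30.3%, against 12.0%), and the median log2 fold change was −0.58. This list and that of the 50 further genes below were chosen with earlier results of these data known, so their shares are no test of either list. Lama5, Lama1 and Lamb1, chains of laminins, had the largest decreases among genes whose stages did not overlap: Lama5 was at 45.5 to 149.6 CPM at E12.5 and at 3.30 to 5.46 CPM at P0 (−4.45, SE 0.40, adjusted p = 8.94e-05), Lama1 changed by −3.71 on the log2 scale (adjusted p = 0.00130) and Lamb1 by −3.09 (adjusted p = 0.000189). Among genes whose stages did not overlap, the largest increases were in Icam1, a ligand of β2 integrins (3.72, SE 0.70, adjusted p = 0.00345; 0.0879 by limma-voom), Col1a1 (3.21, adjusted p = 0.00402) and Fn1, the fibronectin gene (2.74, SE 0.59, adjusted p = 0.00607). Fn1 was at 1496, 1013, 495 and 1110 CPM at E12.5 and 2015, 3647, 11033 and 10699 CPM at P0, and P0 litters 3 and 4, which had the most Fn1, were also those with the most Itga5. Vcam1, the ligand of α4 and α9 integrins, is named after its values were seen: its litters overlapped, at 28.1, 33.0, 16.0 and 29.0 CPM at E12.5 and 1123, 1033, 407 and 30.0 CPM at P0, and its increase was larger (4.61, SE 0.90, adjusted p = 0.00433). Icam1 was at 34.6, 49.2, 27.1 and 3.18 CPM in the P0 litters, lowest in litter 4 as the leukocyte list was.

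Of 50 further genes that act in integrin signalling, 49 were tested, 12 rose and 6 fell (36.7% called, against 27.9% of all genes, with a median log2 fold change of 0.33). Those that rose were 24.5% of the list, against 16.0% of all genes, and those that fell 12.2%, against 12.0%. The largest increases were in Fyb (4.77, SE 0.78, adjusted p = 0.00197), Apbb1ip (4.70, SE 0.51, adjusted p = 0.000236) and Lpxn (4.44, SE 0.87, adjusted p = 0.00415; 0.106 by limma-voom), which encode the blood cell adaptor ADAP, the Rap1 effector RIAM that recruits talin, and leupaxin, the leukocyte relative of paxillin. Apbb1ip was at 3.14 to 8.0 CPM at E12.5 and at 155, 189.5, 209 and 46.2 CPM in the P0 litters, again lowest in litter 4. The largest decreases were in Kank4, a member of the talin-binding KANK family (−2.34, SE 0.32, adjusted p = 0.000628), Ldb3, a protein of the muscle Z-disc (−2.20, SE 0.57, adjusted p = 0.0148), and Enah, an Ena/VASP protein of actin growth (−2.14, SE 0.31, adjusted p = 0.000812). Enah was at 194 to 370 CPM at E12.5 and 45.7 to 87.0 CPM at P0.

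Of the 16 calls among the members, 13 were kept whichever litter was left out, the exceptions being Itga5, Itga11 and Tln1. Under every alternative that could test them, 9 were kept: Itga1, Itgb5, Itgal, Itgam, Itgax, Itgb2, Fermt1, Fermt3 and Parvg. Of these 9, all but Itga1 and Itgb5 were left untested by the filter of at least 10 counts in every sample. In 14 of the 16 the litters of the stages did not overlap, Itga5 and Itga11 being the others. A call itself favours litters that do not overlap, and the share over all called genes was not taken. Over all genes tested, 15.5% had every P0 litter above and 14.4% had every P0 litter below. A member without a call is not shown to be equal between the stages.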

How the data were processed

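RNA-Seq reads of 4 E12.5 and 4 P0 litters were aligned by the authors to GRCm38 with STAR (2.4.0j in the submitters' processing notes) and counted on Gencode M4 genes with htseq-count; the strand setting is not given in the sources used here. The deposited values are raw counts per gene, without normalization, for libraries made from small amounts of RNA and read as single-end reads of 100 bases. Stage was taken from the sample labels, and litters are numbered in accession order.

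Here, genes were tested in R 4.3.3 with edgeR 4.0.16: filterByExpr (minimum count 10, minimum total 15), TMM normalization, robust quasi-likelihood F-test with stage as the only term, and Benjamini-Hochberg adjustment over all 15467 genes tested. Genes with an adjusted p below 0.05 were called. Each standard error is the size of the log2 fold change divided by the square root of F. The study used DESeq2; it (1.42.0) and limma-voom (3.58.1) were alternatives, with other normalizations, filters, call rules and left-out litters. CPM uses TMM library sizes, per-kb values the exon length in Gencode M21, which also gave positions, and log2 CPM a prior count of 2. Promoters are RefSeq sequence of GRCm38.p6. On simulated data with 200 of 15467 genes changed, the test recovered 10% of 2-fold, 72% of 4-fold, 88% of 8-fold and 96% of 16-fold changes. Of its 135 calls there, 1.48% were genes left unchanged. The real data gave 4321 calls, which changes the cutoff set by the adjustment. The simulated spread also followed the trend over all genes, so these rates need not hold for the real data.

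All 41 members are named; of the ligand and signalling lists, the genes named are the 3 largest increases and 3 largest decreases among called genes whose stages do not overlap. The members and all lists were chosen with earlier results of these data known. The label describes each sample as a separate litter, so p-values measure the spread between litters.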

Additional observations from a re-analysis of the deposited data

Results flagged for a closer look

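In 5 of 78 groups of 4 litters, 1 litter stood apart from the other 3 by Dixon's test at the 95% level on log2 CPM; chance alone marks about 1 in 20 groups. Fermt3 and Parvg were low in P0 litter 4, at 4.23 against 6.65 to 6.77 and at 2.67 against 5.47 to 5.61 in the other P0 litters. That litter also had the lowest leukocyte sum, 367 CPM against 3206 to 4137, and the part of this in either value was not tested. Itgb7 was high in P0 litter 3, at 3.68 against 1.31 to 1.68, and that litter had the highest B lymphocyte sum, 307 CPM against 19.6 to 60.1. Itgam was high in E12.5 litter 4, at 2.94 against −0.14 to 0.06. Itgb5 was low in E12.5 litter 3, at 4.56 against 5.37 to 5.52, and that litter had the highest neural tube sum.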

How the results depend on the processing

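No paired analysis was possible because the labels give the litters of the stages no shared replicate numbers. DESeq2, its size factors, upper quartile normalization, no filter, estimates that were not robust, hemoglobin and mitochondrial genes left out and a fold change over 2 left the counts of higher and lower members within 1.5 times 11 and 5. Upper quartile normalization moved the median log2 fold change of all genes from 0.04 to −0.11, and no filter moved it to 0.45. Lower members numbered 3 with limma-voom and 3 with at least 10 counts in every sample, a filter that left 25 members tested, of which 5 were higher. With E12.5 litters 1 and 4 left out together, 1 member was lower (Fermt1), while Itga8 (−2.46), Itgb8 (−1.98), Itga3 (−1.40) and Itga11 (−0.90) did not pass (adjusted p = 0.0527, 0.0775, 0.0864 and 0.257), 4 ligands were higher, 6 signalling genes were higher and 3 lower, Itga2b passed (1.56, adjusted p = 0.0493), and Itgae was at 0.43. The Itga1 share differed by 6.09 points between the stages when CPM was not divided by length. With 1 litter left out, 10 to 13 members were higher and 4 to 5 lower, and signalling genes lower at P0 numbered 5 to 10, the latter without P0 litter 4. Over those fits some members with no call changed sign: Itga7 (−0.12 to 0.78), Itga2 (−0.78 to 0.49), Itga10 (−0.11 to 0.63), Itga4 (−0.18 to 0.61), Itgae (−0.31 to 0.29), Itgb7 (−0.34 to 0.93), Tln2 (−0.20 to 0.43), Fermt2 (−0.59 to 0.02) and Vcl (−0.36 to 0.47). The cause was not tested. E12.5 litters 1 and 4 had 16.3% and 17.5% of reads tallied as ambiguous, against 7.07% to 11.6% in the others.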
